A study of Mus musculus with 30 samples.

Results

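Genes of the Wnt pathway that are linked to the nail epithelium were followed through regeneration of the mouse digit tip: the ligands Wnt3, Wnt4, Wnt5a, Wnt7b, Wnt10a and Wnt10b, the ligand carrier Wls, the feedback target Axin2, the nuclear factor Lef1 and the R-spondin receptor Lgr6. The genes were chosen by symbol, with earlier results of these data known. They are 10 of the 20321 genes listed, and all 10 were among the 13793 genes with enough counts to be tested. RNA was taken from the third hindlimb digit (the distal phalanx, P3) of adult male C57Bl/6 mice after removal of at most 33% of that bone. Digits were collected on the first day (0 h, then 3 h, 6 h, 12 h and 24 h after amputation), and later at 3 d, at 7 d, and at 14 d and 21 d. These 9 groups held 3 mice each and 6 at 7 d, with 1 library per mouse and 30 in all. Every group was amputated, no allele or agent was added, and the only control was 0 h.

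Wnt proteins are secreted ligands. The acyltransferase Porcupine attaches a lipid to a conserved serine, Wls carries the modified protein to the cell surface, and Frizzled receptors with the co-receptors Lrp5 or Lrp6 receive it. In the best known branch, beta-catenin then enters the nucleus and joins Lef1 or a Tcf factor at target genes such as Axin2, while R-spondins acting through Lgr receptors keep Frizzled at the surface. The nail matrix is known for Wnt activity that accompanies differentiation of the nail plate, and its loss in the epithelium is known to block regrowth of the digit tip.

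The 6 ligands share the stretch around the acylated serine. The coding bases of that stretch are shown to make the likeness between the ligands visible. They are 30 bases each, in coding direction, from GENCODE transcripts of build GRCm38, and the serine codon is in capitals.
Wnt3: tgtaaatgccacgggttgTCCggcagctgc
Wnt4: tgcaagtgtcacggggtgTCGggctcctgc
Wnt5a: tgtaagtgtcatggagtgTCTggctcctgt
Wnt7b: tgtaagtgtcacggtgtgTCAggctcctgt
Wnt10a: tgcaaatgccacggcaccTCAggcagctgc
Wnt10b: tgcaaatgccatggaacgTCAggcagctgc
The serine is codon 212 in Wnt3 and Wnt4, 213 in Wnt7b, 244 in Wnt5a, 253 in Wnt10b and 268 in Wnt10a. Wnt10a differed from Wnt10b at 3 of the 30 bases, and Wnt5a differed from Wnt7b at 3. Wnt4 differed from Wnt7b at 4 and from Wnt5a at 5. The most unlike pair, Wnt5a and Wnt10a, differed at 12.

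In GRCm38 the genes lie on 6 chromosomes. Wnt3 is at chr11:103774150-103817957 (+ strand), Wnt4 at chr4:137277489-137299726 (+) and Wnt5a at chr14:28504750-28527448 (+). Wnt7b, at chr15:85535437-85582473 (-), and Wnt10b, at chr15:98770712-98778150 (-), share a chromosome. Wnt10a is at chr1:74791516-74804179 (+), Wls at chr3:159839672-159938664 (+), Axin2 at chr11:108920349-108950783 (+), Lef1 at chr3:131110471-131224356 (+) and Lgr6 at chr1:134983301-135105276 (-). Reads of 4 genes could mix with those of a gene on the other strand, since the sources used here do not say whether counting used strand. The exons shared in this way covered 358 bases of Wnt5a (with Gm2670), 324 of Wnt7b (with AU022754), 209 of Axin2 (with Gm11670) and 1208 of Lef1 (with Gm43352). Of the 31-base stretches of the Wnt4 transcript, 5.84% also occur in transcripts of other genes, against at most 0.467% for the other members.

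The libraries held 3167625 to 16277816 expected counts (median 6103688). By the date in its name, each sample falls into a summer set of 16 mice and a winter set of 14 mice, called campaigns here, with median totals of 5083528 and 9836324. The summer dates fall in July and August and the winter dates from November to January. What the dates record is not stated in the sources used here, and the names stand for sets of dates only. All mice at 3 h and 12 h were summer mice and all at 21 d winter mice. At 7 d, 3 mice (mice 3, 4 and 6) were labelled left foot and the other 27 mice right foot. One of them, 7 d mouse 3, stood apart: its median correlation with the other mice (log2(CPM + 1), 13793 genes) was 0.881, against 0.925 to 0.959 for the rest. Mice of the same time differed by more than sampling noise in all 39 pairs. Markers of basal keratinocytes, suprabasal keratinocytes and hard keratins were detected in each mouse, but so were markers of fibroblasts and endothelium, and the libraries do not separate nail epithelium from the other tissues of the digit.

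Per transcript length, 3 members stood above the rest. The carrier Wls was highest, with a mean of 89.7 TPM (a level per transcript length and library) and a range over the 30 mice of 59.1 to 137. Wnt4 followed with a mean of 71.2 TPM (35.0 to 109) and Wnt5a, a ligand that acts mostly outside the beta-catenin branch, with 56.5 TPM (21.4 to 88.5). Wls exceeded Wnt4 in 23 of 30 mice, and Wnt4 exceeded Wnt5a in 21. These 3 ranges overlapped, whereas Wnt5a was above Wnt10a in 30 of 30 mice.

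The lower group began with Wnt10a at a mean of 11.9 TPM (4.61 to 29.0), Wnt7b at 10.6 TPM (5.27 to 20.4) and Wnt10b at 10.2 TPM (3.11 to 19.3). Axin2 had a mean of 8.0 TPM (3.26 to 13.6), Lef1 7.0 TPM (0.60 to 15.0), Wnt3 6.7 TPM (1.19 to 14.2) and Lgr6 2.1 TPM (0 to 4.65). Neighbours from Wnt10a down to Wnt3 kept this order in only 16 to 19 of 30 mice, so that their order is within the spread between mice. Wnt3 exceeded Lgr6 in 28 of 30.

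**Figure D1:**
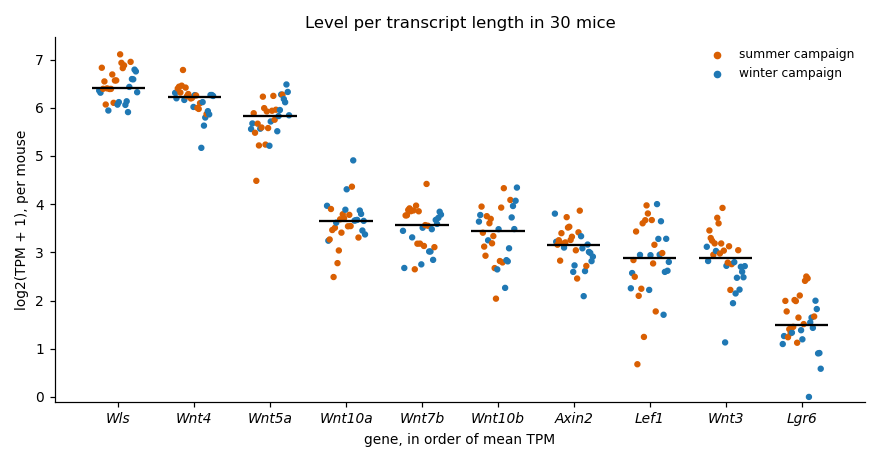
Each point is 1 of 30 mice, the vertical axis is log2(TPM + 1), the genes stand in order of mean TPM from left to right, and the bar is the median. Wls, Wnt4 and Wnt5a lie above the other members, and in Lgr6 1 mouse is at 0.

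Set against all 19 Wnt ligand genes of the mouse, the 6 ligand members held most of the ligand RNA. Their share of the summed ligand TPM was 76.9% to 90.8% over the 30 mice, with a median of 82.7%. Wnt4 and Wnt5a alone gave 55.1% to 73.6%, with a median of 63.3%. Both shares overlapped between the first day and the late times.

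Whether any member varied over the 9 times was tested with edgeR's quasi-likelihood F-test, with p-values adjusted over all genes tested (Benjamini-Hochberg). One of the 10 members, Wnt4, passed at 0.05 (adjusted p = 0.00497), where 9.01% of all genes did. Wnt10b (adjusted p = 0.0556) and Wnt5a (adjusted p = 0.0843) had an unadjusted p under 0.05 and missed the threshold. With the DESeq2 test these genes passed as well, at 0.00748 for Wnt10b and 0.0189 for Wnt5a. The adjusted p of the other 7 ran from 0.302 (Wnt3) to 0.813 (Lef1). With campaign as a covariate Wnt10b (0.0448) and Wls (0.0266) passed beside Wnt4. The sample names hold 13 dates, 3 of them shared by mice of more than 1 time. In a fit by limma voom with the date as a random block, added after the values were seen, no member passed, Wnt4 included (adjusted p = 0.0647), whereas without the block limma voom called Wnt4, Wnt5a and Wnt10b.

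**Figure D2:**
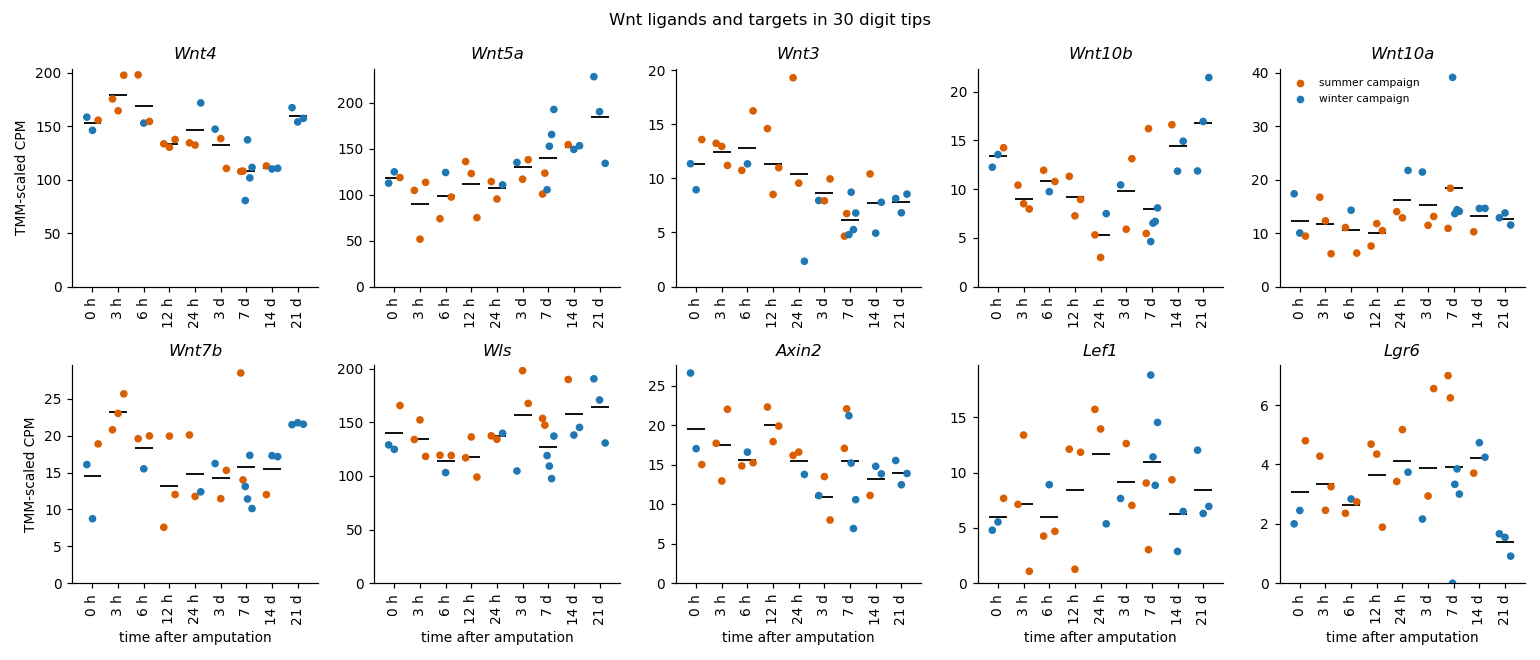
Each panel is 1 member, each point 1 mouse, the horizontal axis the time after amputation, the vertical axis CPM scaled by TMM and the bar the mean of the time point. Wnt4 is lowest at 7 d and 14 d and back near its 0 h level at 21 d, and Wnt5a is highest at 21 d.

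Wnt4, a ligand of the epidermis and of many developing epithelia, dipped at 7 d and 14 d. In CPM (counts scaled to the library total, here with TMM factors) the mice at 0 h were at 158, 146 and 156. Those at 3 h were at 176, 164 and 198, those at 6 h at 198, 153 and 154, those at 12 h at 134, 130 and 138, and those at 24 h at 134, 132 and 172. The lowest first-day mouse was thus at 130 CPM. At 3 d the values were 147, 138 and 110, at 7 d they ran from 80.5 to 137 with a median of 108, and at 14 d they were 113, 110 and 111. At 21 d they were 167, 154 and 157, which is above every mouse at 7 d and 14 d. The spread between mice of a time point was small, with a pooled SD of 0.17 on the log2(CPM + 1) scale against a median of 0.42 over all genes tested.

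Against 0 h, Wnt4 fell at 7 d by 0.51 on the log2 scale (SE 0.14, adjusted p = 0.0477 in edgeR's quasi-likelihood test). It was the only member called at 7 d, where 2.34% of all genes were called. The call is marginal: it was lost under 7 of 10 other settings (adjusted p = 0.217 in limma voom with the date as a block) and when any 1 of 29 of the 30 mice was left out, while the log2 fold change stayed between -0.59 and -0.44. Without 7 d mouse 3 it was -0.44 (adjusted p = 0.0827). At 14 d the log2 fold change was -0.46 (SE 0.16, adjusted p = 0.236), with no overlap between the groups, as in 25.4% of all genes. Wnt4 also did not overlap with 0 h at 3 h, where it was higher, nor at 12 h and 7 d, where it was lower. The summed CPM of 6 suprabasal keratinocyte markers was 58530 to 59262 at 0 h, 28721 to 55298 at 7 d and 25527 to 31643 at 14 d, without overlap with 0 h at either time. Fibroblast markers were at 5622 to 10970 at 0 h, 12576 to 20257 at 7 d and 38007 to 45157 at 14 d, again without overlap with 0 h. Basal keratinocyte markers ran from 11059 to 12075 at 0 h and overlapped with 7 d (9166 to 13868) but not with 14 d (9485 to 9876). Hard keratins ran from 3047 to 5906 at 0 h and overlapped with 7 d (2040 to 7176) and 14 d (2435 to 14497). Of the marker genes, Col1a1, Col3a1, Ibsp, Ptprc, Csf1r and Cdh5 were called higher at 7 d than at 0 h (edgeR). None of the 6 basal keratinocyte, 6 suprabasal keratinocyte and 7 hard keratin markers was called at 7 d or at 14 d. At 14 d 3 of 6 fibroblast and 3 of 6 osteoblast markers were called higher. The part of these in the values of Wnt4 was not tested.

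The return of Wnt4 was looked at in a comparison that was added after its values had been seen. At 21 d it was higher than at 7 d by 0.57 on the log2 scale (SE 0.14, adjusted p = 0.0359, edgeR), with 3 of 3 mice above all 6. Of all genes, 1.46% were called in that comparison. Groups of all genes did not overlap in 6.1%. Wnt4 was called in 8 of the 30 fits that left out 1 mouse, and it was not called in limma voom with the date as a block (0.55, adjusted p = 0.142). Wnt10b, at +1.1 (SE 0.32, adjusted p = 0.0871), missed the threshold. Within the winter mice, the only campaign with both times, the difference of mean log2(CPM + 1) was 0.59 for Wnt4 and 1.23 for Wnt10b.

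At the other 7 times no member was called against 0 h. At 3 h (0.254% of all genes called), 6 h (0.189%) and 12 h (0.167%), no member had an unadjusted p under 0.05 in edgeR. At 24 h (0.493%), 3 d (0.551%), 14 d (1.61%) and 21 d (1.94%) it was 1 member each: Wnt10b at 24 h, Axin2 at 3 d, Wnt4 at 14 d and Wnt5a at 21 d. DESeq2 called no member at any of these 7 times.

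Some members nonetheless had groups that did not overlap with 0 h, as did many of all genes. On the first day it was 3 members at 3 h (19.7% of all genes), 2 at 6 h (17.8%), then 2 at 12 h (19.7%) and Wnt10b alone at 24 h (17.8%). Axin2 alone did not overlap at 3 d (15.2%). At 7 d it was 2 (7.36%), at 14 d 3 (25.4%) and at 21 d 4 (22.8%).

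The late times (7 d, 14 d and 21 d, 12 mice) were then set against the first day (3 h to 24 h, 12 mice). This asks whether levels from 7 d on differ from those of the first day after amputation. Campaign went with time here: the late mice were 3 summer and 9 winter mice, and the first-day mice 10 and 2. With a fixed term for each date in the names, this comparison cannot be estimated. Of the 10 members, 4 differed in edgeR's quasi-likelihood test, where 15.4% of all genes did. Wnt5a and Wnt10b were higher late (9.32% of all genes were), and Wnt4 and Wnt3 were lower (6.09% were). All 4 are ligands. With the date as a block, limma voom called Wnt4 (adjusted p = 0.0463) and Wnt5a (0.0142), while Wnt3 (-0.65, adjusted p = 0.106) and Wnt10b (0.61, adjusted p = 0.108) kept their sign and were not called. The median log2 fold change of the 10 members was 0.03, against 0.00 over all genes tested.

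Wnt5a, a ligand of growing limb mesenchyme and of skin, rose late. The 12 first-day mice ran from 51.6 to 136 CPM with a median of 108, and the late mice from 101 to 229 with a median of 153. In 8 of 12 late mice it was above every first-day mouse. The log2 fold change was 0.64 (SE 0.14, adjusted p = 0.00152). At 0 h the values were 113, 125 and 119, at 14 d they were 155, 149 and 153, and at 21 d they were 229, 190 and 134. On the log2(CPM + 1) scale the late mice were higher by 0.38 within the summer campaign (3 late and 10 first-day mice). Within the winter campaign (9 late and 2 first-day mice) they were higher by 0.45.

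Wnt10b, a ligand that acts through beta-catenin and is known from hair and nail buds, was low at 24 h and in most mice at 7 d. It stood at 12.2, 13.5 and 14.2 CPM at 0 h, at 5.30, 2.98 and 7.48 at 24 h and at 11.9, 16.9 and 21.4 at 21 d. At 7 d 5 of 6 mice were at 4.62 to 8.06 CPM and mouse 2 was at 16.2. The late mice ran from 4.62 to 21.4 CPM (median 11.8) and the first-day mice from 2.98 to 11.9 (median 8.71), and 5 late mice were above all first-day mice. The log2 fold change was 0.59 (SE 0.20, adjusted p = 0.0399), and it was called in 19 of 30 fits that left out 1 mouse. Its values at 21 d were above those of most mice at 7 d, and the comparison averages over the late times. The difference of Wnt10b between 21 d and 7 d was not called (adjusted p = 0.0871, edgeR). Within campaigns the difference of mean log2(CPM + 1) was 0.46 (summer) and 0.25 (winter).

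Wnt3, a ligand that acts through beta-catenin, was lower late. The first-day mice ran from 2.34 to 19.3 CPM (median 11.3) and the late mice from 4.66 to 10.4 (median 6.81). In 9 of 12 first-day mice it was above every late mouse, while in 1, mouse 3 at 24 h, it was below every one. At 0 h the values were 11.4, 8.95 and 13.6 CPM, and all 6 mice at 7 d were lower, between 4.66 and 8.73. The log2 fold change was -0.71 (SE 0.22, adjusted p = 0.0271). It was -0.40 (adjusted p = 0.364) with campaign as a covariate, and the sign was not the same in both campaigns. The difference of mean log2(CPM + 1) was -0.76 in summer (3 late and 10 first-day mice) and 0.27 in winter (9 late and 2 first-day mice, among them mouse 3 at 24 h).

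Wnt4 was lower late than on the first day by 0.33 on the log2 scale (SE 0.08, adjusted p = 0.00817). In 8 of 12 late mice, those of 7 d and 14 d except 1, it was below every first-day mouse, and in the 3 mice at 21 d it was not. Within campaigns the difference of mean log2(CPM + 1) was -0.49 (summer) and -0.40 (winter). Wnt4 and Wnt5a were each called in all 30 fits that left out 1 mouse. The number of members called was 2 without 6 h mouse 3, 14 d mouse 3 or 21 d mouse 2, where both Wnt3 and Wnt10b were lost. Without 7 d mouse 3 it was 4.

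**Figure D3:**
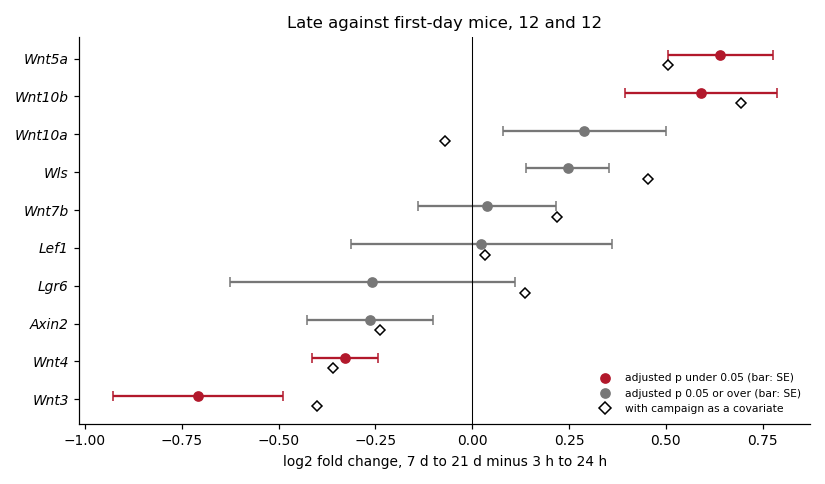
Circles are the log2 fold changes of the 10 members between late (7 d to 21 d) and first-day (3 h to 24 h) mice with their SE, red where the adjusted p was under 0.05, and diamonds the values with campaign as a covariate. Wnt5a and Wnt10b lie above 0 and Wnt3 and Wnt4 below 0, and Wnt10a, at 0.29, and Lgr6, at -0.26, change sign with the covariate.

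Between late and first-day mice Wnt5a and Wnt4 moved in opposite directions, and their ratio per transcript length was worked out after this had been seen, as a description. From 7 d to 21 d both log2 fold changes were positive, at 0.57 for Wnt4 and 0.39 for Wnt5a (adjusted p = 0.50 for Wnt5a, edgeR). In the 3 mice at 0 h Wnt5a had 0.59 to 0.70 times the TPM of Wnt4, and in the 12 first-day mice 0.27 to 0.99 times. In none of those 15 mice did Wnt5a exceed Wnt4. It did in 1 of 3 mice at 3 d, 3 of 6 at 7 d, 3 of 3 at 14 d and 2 of 3 at 21 d. The mean ratio was 0.66 ± 0.06 (SD, n = 3) at 0 h, 1.09 ± 0.25 (SD, n = 6) at 7 d, 1.24 ± 0.08 (SD, n = 3) at 14 d and 0.99 ± 0.21 (SD, n = 3) at 21 d.

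**Figure D4:**
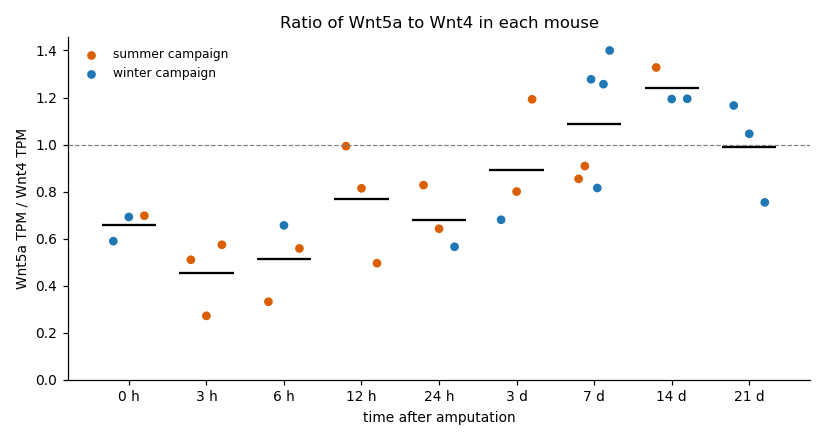
Each point is the TPM of Wnt5a divided by that of Wnt4 in 1 mouse, by time after amputation, with the mean of the time as a bar and equality as a dashed line. All mice up to 24 h lie below 1, and all 3 mice at 14 d lie above it.

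Wls, Wnt7b and Wnt10a did not pass the test. Wls, the carrier on which release of the ligands rests, ran from 98.9 to 152 CPM on the first day (median 127) and from 97.4 to 190 late (median 142). Its log2 fold change was 0.25 (SE 0.11, adjusted p = 0.12), and 0.45 with campaign as a covariate (adjusted p = 0.00263). Wnt7b, a ligand of the epidermis, was at 20.8, 23.0 and 25.7 CPM at 3 h and at 21.5, 21.8 and 21.5 at 21 d, against 16.1, 8.74 and 18.9 at 0 h. Its late minus first-day value was 0.04 (SE 0.18, adjusted p = 0.914). Wnt10a, a ligand whose loss in people affects nails, teeth and skin, ran from 6.14 to 21.7 CPM on the first day and from 10.2 to 18.4 in 11 of 12 late mice. The other, 7 d mouse 3, was at 39.1. Its log2 fold change was 0.29 (SE 0.21, adjusted p = 0.377), or 0.17 without that mouse (adjusted p = 0.556) and -0.072 with campaign as a covariate.

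The genes that read out or tune the pathway did not pass either. Axin2, a feedback inhibitor that beta-catenin induces, was at 26.6, 17.1 and 15.0 CPM at 0 h and at 11.1, 13.5 and 8.01 at 3 d, where all 3 mice were below those at 0 h (log2 fold change -0.85, SE 0.32, unadjusted p = 0.0131, adjusted p = 0.471). Late minus first day it was -0.26 (SE 0.16, adjusted p = 0.290). Lef1, which carries beta-catenin to DNA, varied most between mice of the same time, with a pooled SD of 0.85 on the log2(CPM + 1) scale. At 12 h, for instance, its mice were at 12.1, 1.27 and 11.9 CPM, and at 3 h at 7.13, 13.4 and 1.1. Its late minus first-day value was 0.02 (SE 0.34, adjusted p = 0.975), so that a 1.5-fold change either way would not be excluded by its error. Lgr6, which marks stem cells of the nail and the skin, was at 1.67, 1.54 and 0.91 CPM at 21 d, below all 3 mice at 0 h (2.0, 2.45 and 4.8). These are 8 to 24 counts a mouse, and the log2 fold change of -1.13 (SE 0.72, adjusted p = 0.797) was not called. In 7 d mouse 3 Lgr6 had 0 counts, which allows up to 0.554 CPM (3 counts, counting error only).

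Whether the course of a member differed between the campaigns was tested as an interaction over the 21 mice of the 6 times that hold both. This left out 3 h, 12 h and 21 d. At 0 h, 6 h, 24 h, 3 d and 14 d, 1 of the campaigns had only 1 mouse. With so few mice, a lack of calls does not show that the courses were alike in both campaigns. No member was called, in edgeR or in DESeq2, where edgeR called 0.883% of all genes. The only member with an unadjusted p under 0.05 was Lef1 (adjusted p = 0.337).

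Markers of other tissues of the digit moved with the late times. The summed CPM of 6 fibroblast markers was 12576 to 62805 in the late mice against 3331 to 11525 on the first day, and that of 6 osteoblast and osteocyte markers 724 to 3761 against 136 to 363, both without overlap. In the fibroblast sum Col1a1, Col1a2 and Col3a1 reached 20696, 23489 and 16636 CPM, against at most 1545 (Lum) for the others. In the osteoblast sum Ibsp reached 3445 CPM and the next, Alpl, 196. Leukocyte markers ran from 95.3 to 474 against 61.8 to 139 and endothelial markers from 140 to 265 against 86.8 to 209. Basal keratinocyte markers ran from 9166 to 13868 against 9538 to 14273, suprabasal ones from 18771 to 55298 against 32203 to 85762, and hard keratins from 2040 to 20783 against 1674 to 9078. No marker of fibroblasts or keratinocytes was at 0 in any mouse, whereas Bglap, which bone-forming cells make, was at 0 in 5 mice and the leukocyte gene Tyrobp in 4. Of the marker genes, 4 of 6 for fibroblasts, 4 of 6 for osteoblasts and 4 of 6 for leukocytes were called higher late, with 1 fibroblast marker lower. For endothelium 1 of 6 was called higher, and 1 of 6 for basal keratinocytes, 0 of 6 for suprabasal keratinocytes and 0 of 7 for hard keratins were called in either direction (edgeR). The part of this in the 4 ligands was not tested, and in whole digits fewer cells of a type and less RNA per cell cannot be told apart.

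Of 80 other genes of the pathway, 74 were tested. Dkk4, Sp5, Wnt1, Wnt7a, Wnt8a and Wnt8b had too few counts. Of the 74, 10 varied over the 9 times in edgeR's F-test (13.5% of those tested, against 9.01% of all genes). Between late and first-day mice 16 differed (21.6%, against 15.4%), 12 higher and 4 lower. The list was drawn up with earlier results of these data known, so these shares are a description only. In limma voom with the date as a block 6 varied over time (Dkk3, Frzb, Lgr5, Sfrp4, Sostdc1 and Wif1) and 8 differed late (Cd44, Dkk3, Fzd2, Lgr5, Nkd2, Wnt2b, Wnt5b and Wnt9a). The median late minus first-day value of the 74 was 0.13, against 0.00 over all genes.

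Among ligands, Wnt2b, Wnt5b and Wnt9a were higher late, 3 of 9 tested. Wnt9a, a ligand of forming joints, ran from 0 to 6.12 CPM on the first day and from 0.739 to 15.4 late, and its 3 mice at 21 d were between 14.3 and 15.4 (log2 fold change 1.75, SE 0.41, adjusted p = 0.00358). Wnt5b, the closest relative of Wnt5a, ran from 3.74 to 17.2 CPM against 11.1 to 21.5 late (0.75, SE 0.22, adjusted p = 0.0170). Wnt2b was low, at 0 to 2.98 CPM on the first day and 1.18 to 12.4 late (1.84, SE 0.48, adjusted p = 0.00911).

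Among receptors, Fzd1, Fzd2 and Fzd5 of 15 tested were higher late and none was lower. Fzd2 ran from 1.1 to 9.43 CPM on the first day and from 2.77 to 15.7 late (log2 fold change 1.28, SE 0.26, adjusted p = 0.000939). Fzd1 and Fzd5 had smaller changes of 0.45 and 0.60. Fzd1 was also called against 0 h at 7 d and at 21 d, by 0.98 and 0.95. Of the genes around R-spondin, Lgr5, a relative of Lgr6 that marks cycling stem cells, was higher late (1.33, SE 0.29, adjusted p = 0.00229) with 9.80 to 19.0 CPM at 21 d against 5.20 to 7.04 at 0 h. Rnf43, a ligase that removes Frizzled from the surface, was lower (-0.48, SE 0.14, adjusted p = 0.0177).

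Of 14 secreted inhibitors tested, 4 varied over the 9 times, and 2 were higher and 1 lower late. Dkk3, a divergent member of the Dickkopf family, was at 76.3 to 110 CPM at 0 h and at 236 to 301 at 21 d, and 10 of 12 late mice were above every first-day mouse (log2 fold change 1.37, SE 0.15). Sfrp4, which binds Wnt ligands, rose and fell. It was at 9.04 to 15.0 CPM at 0 h, 33.7 to 59.3 at 24 h, 50.5 to 53.7 at 3 d, 21.7 to 105 at 7 d and 2.96 to 8.04 at 21 d. Against 0 h it was called at 24 h (2.13), 3 d (2.19) and 7 d (2.23). Its late minus first-day value of -0.69 (SE 0.23, adjusted p = 0.0415) averages over that course, and the difference of mean log2(CPM + 1) was 0.61 in summer and -0.62 in winter. Wif1, another binder of Wnt ligands, was called higher than 0 h at 3 d (1.40) and 7 d (1.16), with 73.8 to 181 and 66.3 to 132 CPM against 37.0 to 47.2. Sfrp1 was higher late by 0.40 (SE 0.14, adjusted p = 0.0418), with -0.21 within summer and 0.55 within winter on the log2(CPM + 1) scale. Sostdc1, which inhibits both Wnt and BMP ligands, varied over time (adjusted p = 0.00953) and was at 5.78 to 10.6 CPM at 3 h and 5.65 to 14.8 at 21 d against 20.3 to 24.1 at 0 h.

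In the nuclear and target lists, 1 of 17 core genes, the repressor Tcf7l1, was higher late (0.65, SE 0.18, adjusted p = 0.0127). Of 11 further targets, the feedback inhibitors Nkd1 (0.90, SE 0.22, adjusted p = 0.00490) and Nkd2 (0.41, SE 0.12, adjusted p = 0.0216) were higher. Myc (-0.44, SE 0.13, adjusted p = 0.0176) and the surface receptor Cd44 (-0.43, SE 0.10, adjusted p = 0.00286) were lower. Both are induced by many signals besides Wnt. Myc was called at 3 h against 0 h (1.27, SE 0.25, adjusted p = 0.0151), with 88.3 to 170 CPM against 47.6 to 66.9. The targets thus did not share a direction.

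**Figure D5:**
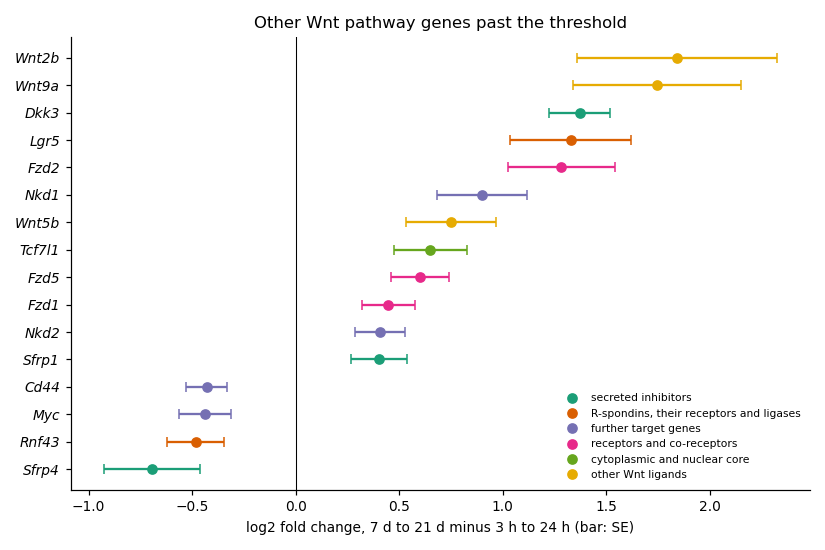
Points are the log2 fold changes, with SE, of the 16 other pathway genes with an adjusted p under 0.05 between late and first-day mice, coloured by role. Of the 16, 12 lie above 0, from Sfrp1 at 0.40 to Wnt2b at 1.84, and 4 below.

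The genes most like each member over the 30 mice were found by Pearson's r of log2(CPM + 1), as a description, since mice share time and campaign. Wnt4 was most like Hopx (r = 0.786), Sprr1b (0.781), a protein of the cornified envelope, and Lrrc8e (0.762). Wnt5a was most like 2810417H13Rik (0.828), Prrc1 (0.822) and C1qtnf5 (0.772). For Wls they were KCTD12 (0.784), Bnip3 (0.766) and Msx1 (0.737), a homeobox factor of the digit tip. Wnt3 was most like Chml (0.744), Ston2 (0.735) and Pus7 (0.730). Wnt10a was most like Atf6b (0.804), Elp6 (0.759) and Tm2d3 (0.731), and Wnt10b like Slc17a9 (0.694), Fat3 (0.692) and Mamdc2 (0.685). For Wnt7b they were Npc1 (0.706), Desi2 (0.676) and Acvr1 (0.654), and for Axin2 Ppp1r11 (0.628), Coq6 (0.624) and Ehd2 (0.617). Lef1 was most like Stambpl1 (0.657), Lhpp (0.655) and Tdrd7 (0.653), and Lgr6 like Cd40 (0.814), Ramp2 (0.808) and Fcgr2b (0.805). No member was among the 3 genes most like another, and the highest r between members was 0.387, for Wnt3 and Wnt4. The lowest were -0.54, for Wnt3 and Wnt10a, and -0.41, for Wnt4 and Wnt10a.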

How the data were processed

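Expected counts and TPM of 20321 genes in 30 libraries were analysed. The authors made the deposited expected counts and the deposited TPM with RSEM 1.2.3 after base calling with CASAVA 1.8.2 and alignment with Bowtie to mouse transcripts (mm10), per the submitters' processing notes and methods, from single-end reads of polyA RNA. A further deposited table, of normalized TPM averaged by time point, was not used. Expected counts, 78.1% of which were whole, were rounded. edgeR 4.0.16 (R 4.3.3) was used with TMM scaling, its own filter on low counts by time point, 1 fit over all 30 mice and Benjamini-Hochberg adjustment over all genes tested, with a threshold of 0.05. The contrasts were each time against 0 h, and the mean of 7 d, 14 d and 21 d against the mean of 3 h, 6 h, 12 h and 24 h. CPM are TMM-scaled, and group differences within a campaign are on the log2(CPM + 1) scale. Replicates are separate mice by the methods, numbered in accession order, and the numbers pair nothing. The names of 0 h mouse 3 and 12 h mouse 2 hold the same code, date and foot, and what the code records is not stated.

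As alternatives, the counts were scaled with DESeq2 1.42.0, tested with DESeq2, or fitted with no filter, with at least 1 CPM in 6 mice, with campaign as a covariate, without the left-foot mice, with libraries thinned to the lowest total, with only the 2 times compared, and with each mouse left out. Added after the values were seen were limma 3.58.1 (voom) and the same with the date in the sample name as a random block (correlation of mice of a date 0.263). The fit was tested on simulated data, with 200 genes changed in each run. For changes at 7 d it recovered 39% of 2-fold and 75% of 4-fold ones against 0 h. For changes at the late times it recovered 70% and 89% against the first day. Of the genes called, 5% and 4.79% were unchanged ones. In the F-test over time it was 6.56% for changes at 7 d and 4.83% for late changes. The simulated mice were drawn independently, with no effect of date or campaign, so these rates do not cover such effects. Named genes were the 10 members, the pathway genes with an adjusted p under 0.05 over time or between late and first-day mice, and the 3 genes most like each member. Members and lists were chosen with earlier results of these data known. The hard keratin gene Krt85 was not analysed here. Positions and coding stretches are from GENCODE M21.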

Additional observations from a re-analysis of the deposited data

Results flagged for a closer look

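At 7 d, the only time with more than 3 mice, Dixon's test was run, and 2 of the 10 members had a mouse far from the others, and chance gives about 1 in 20. Wnt10a was at 39.1 CPM in mouse 3 against 10.9 to 18.4 in the others, a gap of 0.734 of the whole range. Mouse 3 also had the fewest genes with a count of the 6 (12191, against 13937 to 14830) and the highest summed CPM of suprabasal keratinocyte markers (55298, against 28721 to 51058), and their part in the value was not tested. Wnt10b was at 16.2 CPM in mouse 2 against 4.62 to 8.06 in the others, a gap of 0.702 of the range. Of the 6 mice, mouse 2 was the lowest in summed CPM of basal keratinocyte (9166), suprabasal keratinocyte (28721), hard keratin (2040) and osteoblast (724) markers and the highest in fibroblast (20257) and endothelial (265) markers, and their part in the value was not tested. With and without mouse 2, the log2 fold change of Wnt10b was -0.74 and -1.06 at 7 d against 0 h, and 1.1 and 1.38 at 21 d against 7 d, given with no test since the mouse was picked by its Wnt10b level.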

How the results depend on the processing

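The count of 4 members between late and first-day mice was 4 under 8 of 9 other settings, 2 in limma voom with the date as a block, and 2 to 4 with 1 mouse left out. With campaign as a covariate it held Wls in place of Wnt3. The count over time was 3 with the DESeq2 test, the covariate or limma voom and 0 with the date as a block (1 to 2 with 1 mouse left out). The count at 7 d was 0 with DESeq2 size factors, no filter, the stricter filter, no left-foot mice, thinned libraries, only the 2 times compared or the date as a block (0 to 1 with 1 mouse left out). Between 21 d and 7 d it was 0 with DESeq2 size factors, thinned libraries or the date as a block, 2 without left-foot mice or with limma voom, and 3 with the covariate (0 to 1 with 1 mouse left out). At the other times against 0 h, and in the interaction, it was 0 throughout. Pathway genes over time numbered 20 with the DESeq2 test, 21 with limma voom, 6 with the date as a block and 6 to 14 with 1 mouse left out, 6 without 3 h mouse 3, 6 h mouse 3, 14 d mouse 2 or 3, or 21 d mouse 1 or 2. Between late and first-day mice they numbered 8 with the date as a block and 13 to 19 under the other settings. Uncalled late values that changed sign were Wnt10a (-0.072) and Lgr6 (0.14) with the covariate and Lef1 without left-foot mice (-0.19) and with the date as a block (-0.052). With 1 mouse left out, Lef1 ran from -0.10 to 0.22 and Wnt7b from -0.038 to 0.15. The cause of these shifts was not tested. No paired analysis was possible because the replicate numbers follow accession order, and the dates in the names were fitted as a random block instead. The reason is that a fixed term for each date leaves 1 of the 8 times against 0 h estimable. Late minus first day is not estimable with it. Depth limits Lgr6 (0 to 49 counts a mouse) and Lef1 (3 to 130) most.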

Other observations

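The motif CTTTGA, read on either strand, which Lef1 and Tcf factors bind, was searched in RefSeq promoters of GRCm38.p6. It was in 16.0% of all 32851 promoters. Promoters of 7 members were in the table, 10 in all, and 1 held it, at a downstream start of Lef1, with matches 180 and 120 bases before that start. This is a description of these windows.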
